A study of Mus musculus with 24 samples.

Results

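The 9 livers whose hepatocytes lacked JNK1 by label were compared with 9 livers of the same experiments that kept it, and the genes of interest were those that differed in the same direction in each of 3 experiments. The members were chosen by label: 18 of the 24 livers of the series, 3 to a group, each from a separate mouse. In the first experiment, JNKΔhepa double knockout mice were set against mice labelled control, 40 days after diethylnitrosamine (DEN), a liver carcinogen. In the next, JNKΔhepa double knockout mice were set against mice labelled control after 28 days of bile duct ligation (BDL), a surgical block of bile flow. In the last, untreated NEMO/JNK1Δhepa double knockout mice aged 8 weeks were set against untreated NEMO single knockout mice of that age, so that both groups carry the NEMO deletion by label. Per the labels' protocols, JNKΔhepa animals combine a loxP-flanked Jnk1 gene with Jnk2 loss in the whole body, and Alb-Cre, which acts in hepatocytes, drives the deletions. The ages of the DEN and BDL mice are not given, and neither is the exact genotype of their controls. The 6 livers of mice aged 52 weeks combine other deletions and were set aside, apart from 1 comparison of values.

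c-Jun N-terminal kinases are stress-activated kinases at the end of a relay in which upstream kinases such as ASK1 activate MKK4 and MKK7, which then phosphorylate JNK. Active JNK phosphorylates c-Jun and other members of the AP-1 family of transcription factors, and dual-specificity phosphatases switch it off. Liver expresses JNK1, encoded by Mapk8, and JNK2, encoded by Mapk9, and the kinases are known for roles in hepatocyte death, proliferation and lipid metabolism.

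The values are log2 expression levels from a whole-transcript Affymetrix mouse array, 1 array for each liver. A difference is the mean of JNK1-loss livers minus the mean of the livers they were set against, so that 1 on this scale is a 2-fold change. The median over all probe sets lay between 4.55 and 4.65 in the 18 livers. Albumin (Alb), the main secreted product of hepatocytes, lay between 13.17 and 13.31 in all of them, while Prss2, a pancreatic trypsinogen, lay between 2.93 and 3.58. Levels up to about that of Prss2 are read here as the floor of the array. The floor is not 1 number, since single probe sets read lower, down to 0.68 in the series. Whole livers were measured, so that fewer cells of a type and less RNA in each cell cannot be told apart.

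A single liver differed from the others in its sex-linked genes, and the labels give no sex. The third JNKΔhepa liver after DEN had 10.38 for Xist, the RNA of the inactive X chromosome, and 2.81 for the Y-linked gene Uty. The 17 other livers had 2.16 to 3.87 for Xist and 5.82 to 6.93 for Uty, so that 1 liver of the 18 had a female pattern. The mouse identifiers also carry a prefix that follows the groups in part. All 6 DEN livers, all 3 JNKΔhepa livers and 1 control liver after BDL, and all 3 NEMO/JNK1 livers share 1 prefix. The other 2 BDL controls carry a second prefix, and all 3 NEMO livers at 8 weeks carry another, so that prefix and genotype cannot be told apart at 8 weeks.

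Mapk8 was lower in the JNK1-loss livers of every experiment, the direction that the labels give. After DEN it was 5.91, 5.98 and 5.76 in JNKΔhepa livers, against 6.58, 6.63 and 6.36 in control livers. In the BDL livers it was 5.41, 6.00 and 5.67 in JNKΔhepa livers, against 6.75, 6.84 and 6.55 in control livers. In the 8-week livers it was 6.03, 5.72 and 6.41 in NEMO/JNK1 livers, against 6.82, 6.68 and 6.50 in NEMO livers. Every JNK1-loss liver lay below every liver it was set against within its experiment, the closest pair being the third livers of the 8-week groups. The pooled difference was -0.76 ± 0.10 (SE, n = 9 and 9), a level 1.69-fold lower, with an adjusted p of 0.00816 from limma over 18820 genes. The exact permutation p, with livers exchanged within experiments, was 0.00025, the smallest that the 8000 arrangements can give. With the identifier prefix as a term, the difference was -0.72 and its adjusted p 0.251.

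Mapk9 did not separate the groups in any experiment. Across the 12 DEN and BDL livers it lay between 2.91 and 3.41, at the floor of the array, in livers labelled control as well as in JNKΔhepa livers. In the 6 livers at 8 weeks it lay between 7.99 and 8.53. The pooled difference was 0.00 ± 0.09 (SE, n = 9 and 9; limma adjusted p = 0.994), so that of Mapk8 and Mapk9 the comparisons contrast Mapk8. The comparisons still differ in background. After DEN and BDL, Mapk9 was at the floor in both arms, and at 8 weeks it was expressed in both arms. The pooled fit does not separate these backgrounds. Ikbkg, which encodes NEMO, had 6.97, 6.76 and 7.02 in NEMO/JNK1 livers and 7.26, 7.16 and 6.80 in NEMO livers at 8 weeks, with a range of 6.72 to 7.49 in the DEN and BDL livers. Levels in livers labelled as lacking NEMO at 8 weeks thus lay within the range of the DEN and BDL livers. At 52 weeks Ikbkg was 6.47, 6.45 and 6.43 in NEMO/JNKΔhepa livers, against 7.0, 7.41 and 7.48 in control livers, a difference of -0.85 (limma adjusted p = 0.0043).

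**Figure D1:**
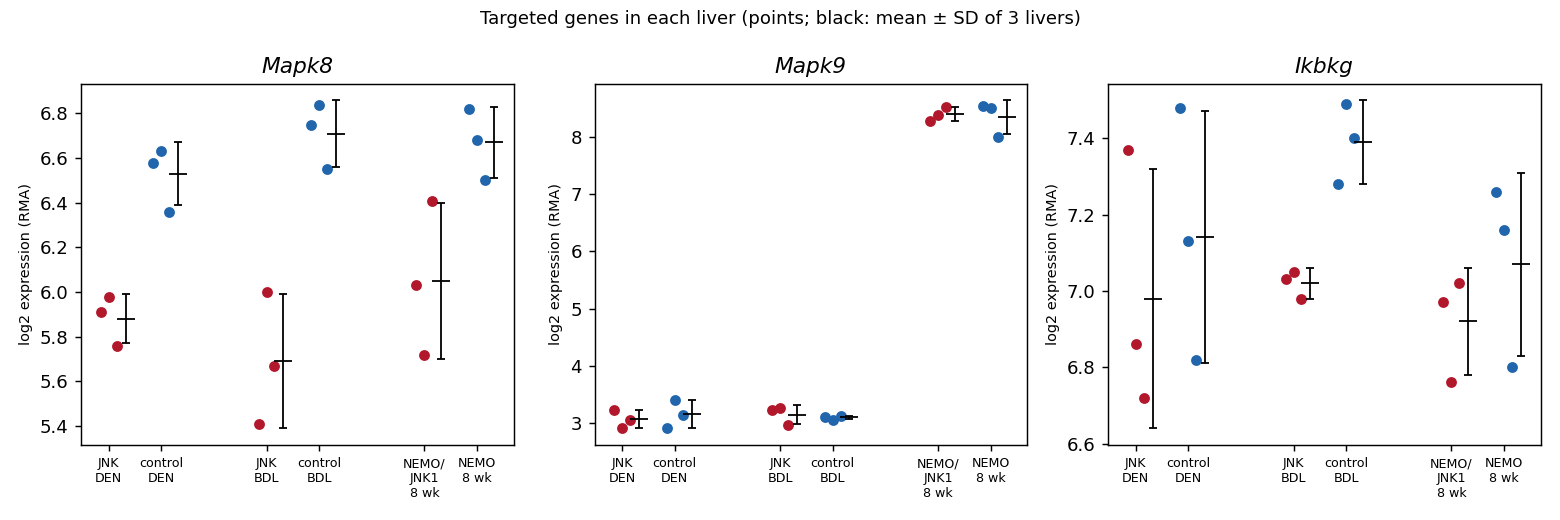
Log2 expression of Mapk8, Mapk9 and Ikbkg in each of the 18 livers (red, JNK1 loss; blue, the livers of the same experiment without it; black, mean ± SD of 3). Mapk8 is lower in all JNK1-loss groups, Mapk9 is near 3 in all DEN and BDL livers and at 7.99 or more at 8 weeks, and Ikbkg overlaps between groups at 8 weeks.

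Beyond the deleted gene, JNK1 loss went with higher expression of a pair of histone genes, a phosphate transporter, a phospholipid flippase and a regulator of G protein signalling, and with lower expression of 12 other genes, among them Plin4, Prelid2, Slc5a6, Fmo5 and Baiap2l1. In all, 18 of 18820 genes passed an adjusted p of 0.05 in the pooled limma fit with experiment as a block, which is 0.0956%. Of these, 5 rose (0.0266%) and 13 fell (0.0691%), Mapk8 included. With 1 liver left out the total lay between 5, without the second JNKΔhepa BDL liver, and 73, without the first JNKΔhepa DEN liver. All 18 had the same sign in each of 3 experiments, as did 29.4% of all genes tested. In 11 of the 18 the groups did not overlap in any experiment, a pattern that 0.149% of all genes showed. The largest of the 3 differences was that of DEN for 2 of the genes, of BDL for 7 and of the 8-week livers for 9. None of the 18 differed between experiments at an adjusted p of 0.05 by limma's interaction test, which 11 genes of the array passed (0.0584%), and 3 of the 18 had an unadjusted p under 0.05 there. The 18 were chosen by a pooled fit of these same livers, which favours genes whose differences are alike between experiments. Signs, overlap and interaction in the 18 are thus descriptions and no separate support for a shared difference.

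Single experiments differed in their calls. Tested alone with limma, the DEN livers gave 0 genes at an adjusted p of 0.05 (781 genes, or 4.15%, at an unadjusted p of 0.05) and the 8-week livers gave 0 (1442 genes, or 7.66%, unadjusted). When all 6 groups shared 1 estimate of the spread, those counts were 0 and 16. The BDL livers alone gave 255 genes (1.35%), among them 10 of the 18, and 71 genes with the shared estimate. At an unadjusted p of 0.05, 11 of the 18 passed after DEN, 18 after BDL (where 14.6% of all genes did) and 17 at 8 weeks, and 10 passed in each. Over all genes tested, 19 passed in each with the same sign. The 18 were chosen from these same livers, so that their passing in single experiments is no replication. Without the BDL livers no gene passed in the pooled fit (1491 at an unadjusted p of 0.05). Without the female-pattern liver 21 genes passed, with 16 of the 18 among them. With the identifier prefix as a term 1 gene passed and it was none of the 18. That gene, named after its values were seen, was Gabrp, which was higher. In that fit the 8-week contrast drops out, since prefix follows genotype there, and the BDL contrast rests on 1 control liver, so that fewer livers bear on the result.

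**Figure D2:**
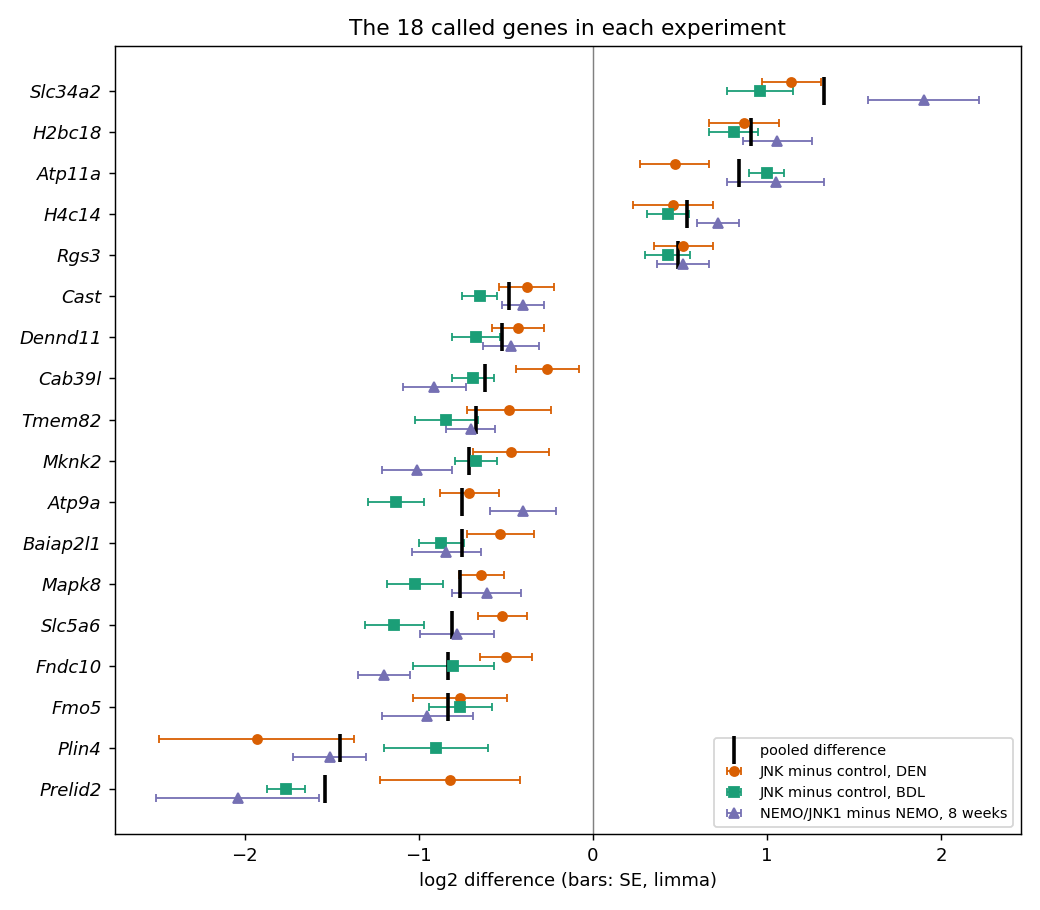
Log2 differences of the 18 genes in each experiment, with standard errors from limma, and the pooled difference as a black mark. All 3 experiments lie on the same side of 0 for every gene, with Plin4 and Prelid2 furthest below 0 and Slc34a2 furthest above it.

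Histone genes were among the rises. H2bc18 encodes a histone H2B that, like other replication-dependent histones, is made mainly during DNA synthesis, and a stretch of its promoter is shown because the element in capitals, the octamer ATTTGCAT, is known from H2B gene promoters as a binding site of OCT1. The sequence comes from RefSeq (GRCm38.p6, chr3:96269450-96269749, plus strand, 250 bases before to 50 after the start of the gene), and the octamer ends 40 bases before that start.
H2bc18: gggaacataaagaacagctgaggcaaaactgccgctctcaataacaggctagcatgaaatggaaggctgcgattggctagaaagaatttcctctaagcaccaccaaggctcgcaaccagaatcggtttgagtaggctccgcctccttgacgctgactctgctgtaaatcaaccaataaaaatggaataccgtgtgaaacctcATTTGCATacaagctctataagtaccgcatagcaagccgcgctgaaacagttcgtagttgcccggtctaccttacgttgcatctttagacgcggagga

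After DEN, H2bc18 was 4.79, 5.52 and 5.08 in JNKΔhepa livers, against 4.21, 4.16 and 4.43 in control livers. The BDL values were 5.51, 5.19 and 5.33 in JNKΔhepa livers, against 4.43, 4.40 and 4.76 in control livers. The 8-week values were 5.17, 5.48 and 5.11 in NEMO/JNK1 livers, against 3.83, 4.47 and 4.29 in NEMO livers. No JNK1-loss liver was below 4.79 and no other liver above 4.76, so that the 9 livers stood apart from the 9 even across experiments. The pooled difference was 0.91 ± 0.11 (SE, n = 9 and 9), a level 1.88-fold higher (limma adjusted p = 0.00337), and the gene passed with any 1 of the 18 livers left out. With the prefix as a term the difference was 0.77 and its adjusted p 0.251. H4c14, which encodes histone H4, rose by 0.54 ± 0.10 (SE, n = 9 and 9; limma adjusted p = 0.0348), with differences of 0.46 after DEN, 0.43 after BDL and 0.72 at 8 weeks. Its first JNKΔhepa liver after DEN, at 8.28, lay within the control range of 8.09 to 8.45, and its adjusted p was 0.0544 without the female-pattern liver. H4c14 passed in 4 of the 18 fits that leave out 1 liver.

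A list of 29 replication-dependent histone genes, drawn up after these values were seen, is given as a description. Besides H2bc18 and H4c14, no member passed the adjusted threshold. At an unadjusted p of 0.05, 18 of the 29 were higher and 1 was lower, where 5.64% and 5.46% of all genes were, and 23 had a positive difference in each experiment. The median difference of the list was 0.32, against -0.012 over all genes, with 0.30 after DEN, 0.38 after BDL and 0.16 at 8 weeks. H2ac4 had a difference of 0.95 ± 0.20, H4c3 one of 0.72 ± 0.15, H1f1 one of 0.64 ± 0.13 and H2bc9 one of 0.43 ± 0.08 (SE, n = 9 and 9), with limma adjusted p-values of 0.075, 0.0739, 0.0739 and 0.0606. In JNKΔhepa livers after DEN, H2ac4 was 5.02, 6.90 and 5.84 and H1f1 was 6.11, 7.24 and 6.59, with the second liver highest in both. With the prefix as a term, 12 were higher at an unadjusted p of 0.05 and 0 lower, and without the female-pattern liver 18 and 1. Genes within a histone class are similar in sequence, so that probes can share signal between them and the members are not independent measurements.

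The octamer, searched on both strands, was in 1.93% of the 14749 array genes with a promoter in the RefSeq table, in 9 of 25 histone genes with one and in 5 of 7 H2B genes. The windows of 28 bases around it are shown for the 4 H2B genes beside H2bc18, with the octamer in capitals (GRCm38.p6, chromosome 13, read along the gene).
H2bc14: tctcgtctctATTTGCATaacagcgtgt
H2bc3: tgagtctcttATTTGCATaaagcctttg
H2bc8: tgagtcccttATTTGCATagaacctcta
H2bc1: aattccccttATTTGCATgcacccagca

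The octamer ends 17 bases before the start of H2bc14, 82 before that of H2bc3, 51 before that of H2bc8 and 156 before that of H2bc1. H2bc14 had a pooled difference of 0.51 ± 0.13, H2bc3 one of 0.39 ± 0.14, H2bc8 one of 0.32 ± 0.11 and H2bc1 one of 0.05 ± 0.10 (SE, n = 9 and 9), and none passed the adjusted threshold. H2bc9, whose difference is given above, was not among the H2B genes found to hold the octamer. Whether the octamer goes with a difference was not tested. Among the 18 called genes, 14 had a promoter in the table. The AP-1 motif TGANTCA was in 0 of those 14 windows, against 7.92% of all genes, and the motif TGACGTCA in 0, against 2.77%, neither overlapping the octamer. H2bc18 was the single one of the 14 with the octamer. A match describes letters in a window of 300 bases and is not a binding measurement.

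**Figure D3:**
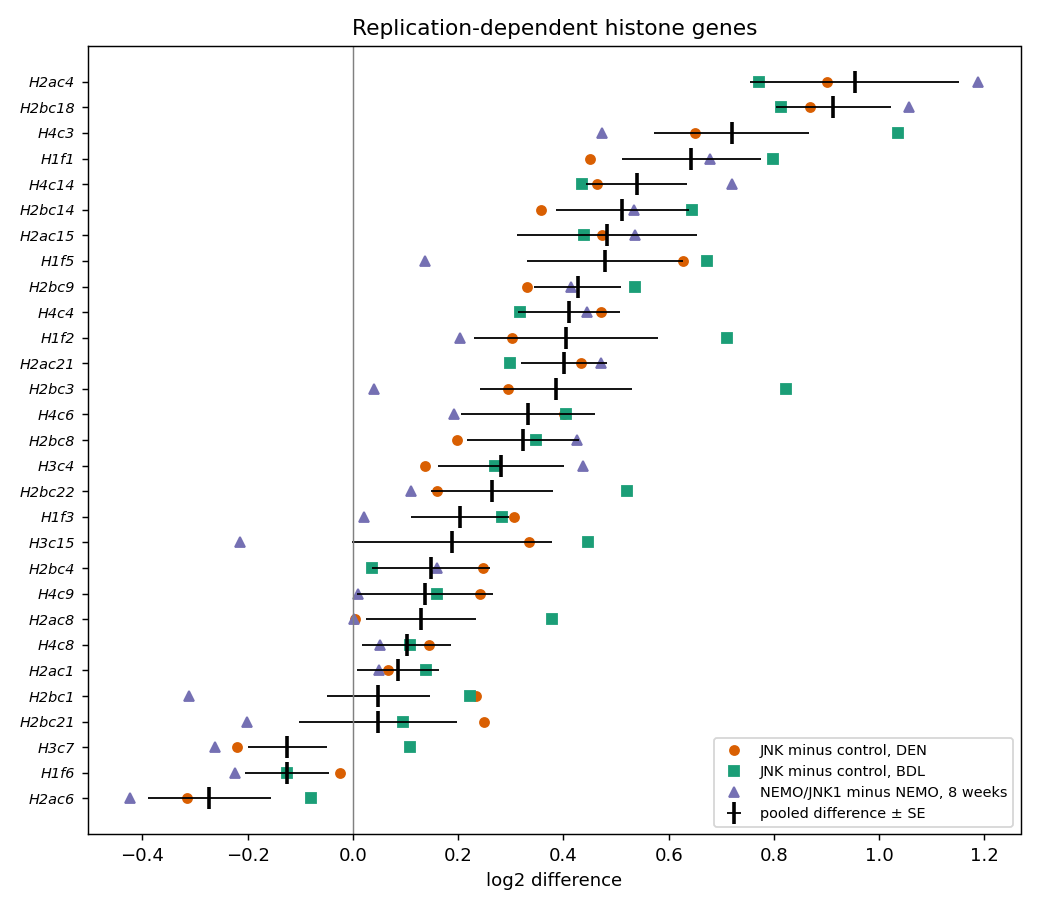
Log2 differences of 29 replication-dependent histone genes in each experiment, with the pooled difference and its standard error in black. H2ac4 and H2bc18 are highest, at 0.95 and 0.91, and most members lie right of 0, with H2ac6, whose levels are at the array floor, lowest at -0.27.

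Slc34a2, the sodium-dependent phosphate transporter NaPi-IIb, had the largest rise of the 5 called. After DEN it was 4.54, 4.39 and 4.77 in JNKΔhepa livers, against 3.70, 3.35 and 3.24 in control livers. After BDL it was 5.03, 5.39 and 4.65 in JNKΔhepa livers, against 3.88, 4.16 and 4.17 in control livers. At 8 weeks it was 5.19, 5.38 and 6.42 in NEMO/JNK1 livers, against 3.88, 3.61 and 3.81 in NEMO livers. The lowest JNK1-loss liver, at 4.39, lay above the highest of the others, at 4.17. The pooled difference was 1.33 ± 0.17 (SE, n = 9 and 9), on the log2 scale (limma adjusted p = 0.0051), and the gene passed with any 1 liver left out. Several of the levels without JNK1 loss lay near the array floor, where array values compress differences. In this gene the prefix as a term gave 1.04 and an adjusted p of 0.263.

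Atp11a, a flippase that moves phospholipids to the inner leaflet of the plasma membrane, rose by 0.84 ± 0.14 (SE, n = 9 and 9; limma adjusted p = 0.0243). In the BDL livers it was 8.42, 8.31 and 8.37 in JNKΔhepa livers, against 7.45, 7.33 and 7.31 in control livers. In the 8-week livers it was 7.20, 7.45 and 8.32 in NEMO/JNK1 livers, against 6.68, 6.61 and 6.53 in NEMO livers. The groups were apart in those experiments and overlapped after DEN, where the second JNKΔhepa liver, at 7.18, lay below the first control, at 7.31. Rgs3, which speeds the shut-off of G protein signals, rose by 0.49 ± 0.08 (SE, n = 9 and 9; limma adjusted p = 0.0295), with differences of 0.52 after DEN, 0.43 after BDL and 0.52 at 8 weeks and no overlap in any experiment. Both genes fell short with some livers left out: of 18 such fits, Atp11a passed in 11 and Rgs3 in 7.

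Among the falls were Plin4, a coat protein of lipid droplets, and Fmo5, a flavin-containing monooxygenase. After DEN, Plin4 was 5.68, 4.53 and 5.20 in JNKΔhepa livers, against 8.10, 5.90 and 7.19 in control livers. The BDL values were 5.17, 5.33 and 5.08 in JNKΔhepa livers, against 6.67, 6.27 and 5.33 in control livers. The 8-week values were 4.50, 4.61 and 4.72 in NEMO/JNK1 livers, against 6.07, 5.75 and 6.55 in NEMO livers. The groups did not overlap in any experiment, although the second JNKΔhepa liver and the third control liver after BDL both read 5.33. Plin4 fell by 1.45 ± 0.26 (SE, n = 9 and 9; limma adjusted p = 0.0398), a level 2.73-fold lower, and its adjusted p was 0.0631 without the female-pattern liver. It passed in 4 of the 18 fits that leave out 1 liver.

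Fmo5 was 10.72, 9.73 and 10.51 in JNKΔhepa livers after DEN, against 11.28, 10.87 and 11.11 in control livers. After BDL it was 10.56, 10.72 and 10.75 in JNKΔhepa livers, against 11.12, 11.85 and 11.33 in control livers. At 8 weeks it was 10.96, 10.90 and 10.23 in NEMO/JNK1 livers, against 11.43, 12.04 and 11.48 in NEMO livers. All JNK1-loss livers lay below those of their own experiment. Fmo5 fell by 0.83 ± 0.15 (SE, n = 9 and 9; limma adjusted p = 0.0338) and passed in 9 of the 18 fits that leave out 1 liver.

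Slc5a6, the sodium-dependent transporter of biotin and pantothenate, was 5.08, 5.24 and 4.92 in JNKΔhepa livers after DEN, against 5.60, 5.73 and 5.45 in control livers. In the BDL livers it was 5.06, 4.83 and 5.13 in JNKΔhepa livers, against 6.20, 6.43 and 5.79 in control livers. In the 8-week livers it was 4.91, 4.72 and 5.14 in NEMO/JNK1 livers, against 5.97, 5.84 and 5.29 in NEMO livers. The highest JNK1-loss liver, at 5.24, lay just below the lowest of the others, at 5.29. Slc5a6 fell by 0.81 ± 0.12 (SE, n = 9 and 9; limma adjusted p = 0.0121), a level 1.75-fold lower, and passed with any 1 liver left out. Atp9a, a relative of the flippases, fell by 0.75 (limma adjusted p = 0.0243), with -0.71 after DEN, -1.13 after BDL and -0.40 at 8 weeks. Tmem82, a transmembrane protein, fell by 0.67 (limma adjusted p = 0.0338) and the DENN domain gene Dennd11 by 0.52 (limma adjusted p = 0.0243). With 1 liver left out, Atp9a passed in 10 of 18 fits, Tmem82 in 7 and Dennd11 in 11.

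Baiap2l1, which links membrane curvature to actin, was 7.93, 7.65 and 8.14 in JNKΔhepa livers after DEN, against 8.72, 8.22 and 8.38 in control livers. The BDL values were 8.06, 7.94 and 8.11 in JNKΔhepa livers, against 8.96, 9.08 and 8.68 in control livers. The 8-week values were 8.45, 8.20 and 8.37 in NEMO/JNK1 livers, against 9.49, 9.28 and 8.78 in NEMO livers. The groups did not overlap within any experiment. Baiap2l1 fell by 0.75 ± 0.11 (SE, n = 9 and 9; limma adjusted p = 0.00885), and by 0.80 with an adjusted p of 0.00511 without the female-pattern liver.

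Mknk2 encodes a kinase that acts downstream of the ERK and p38 pathways on the translation factor eIF4E. It was 7.56, 7.96 and 8.46 in JNKΔhepa livers after DEN, against 8.43, 8.55 and 8.43 in control livers, an overlap that rests on the female-pattern liver. After BDL it was 8.21, 8.11 and 8.47 in JNKΔhepa livers, against 9.0, 8.89 and 8.90 in control livers. At 8 weeks it was 8.68, 8.10 and 8.13 in NEMO/JNK1 livers, against 9.41, 9.47 and 9.06 in NEMO livers. Mknk2 fell by 0.71 ± 0.12 (SE, n = 9 and 9; limma adjusted p = 0.0276), and by 0.80 with an adjusted p of 0.00511 without that liver, yet it passed in 10 of the 18 fits that leave out 1 liver. Cast, the inhibitor of calpain proteases, fell by 0.48 ± 0.07 (limma adjusted p = 0.0163) with no overlap in any experiment. Cab39l, a scaffold of the LKB1 kinase complex that lies on chromosome 14 as Mapk8 does, fell by 0.62 ± 0.11 (limma adjusted p = 0.0398), with -0.26 after DEN, -0.69 after BDL and -0.91 at 8 weeks. It passed in 6 of those fits and Cast in 16.

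The remaining falls were Fndc10, a fibronectin type III domain gene, by 0.83 ± 0.13 (SE, n = 9 and 9; limma adjusted p = 0.0163), which passed in 17 of those fits, and Prelid2, which passed in 10. Relatives of Prelid2 in the PRELI domain family move lipids between mitochondrial membranes. After BDL, Prelid2 was 4.68, 4.74 and 4.85 in JNKΔhepa livers, against 6.63, 6.51 and 6.41 in control livers. In the 8-week livers it was 5.05, 5.41 and 6.13 in NEMO/JNK1 livers, against 8.19, 7.96 and 6.57 in NEMO livers. The groups were apart there and overlapped after DEN, where the second JNKΔhepa liver, at 5.37, lay above the first and second controls, at 5.19 and 5.21. Prelid2 fell by 1.54 ± 0.26 (SE, n = 9 and 9; limma adjusted p = 0.0243), a level 2.90-fold lower and the largest of the 13 falls.

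**Figure D4:**
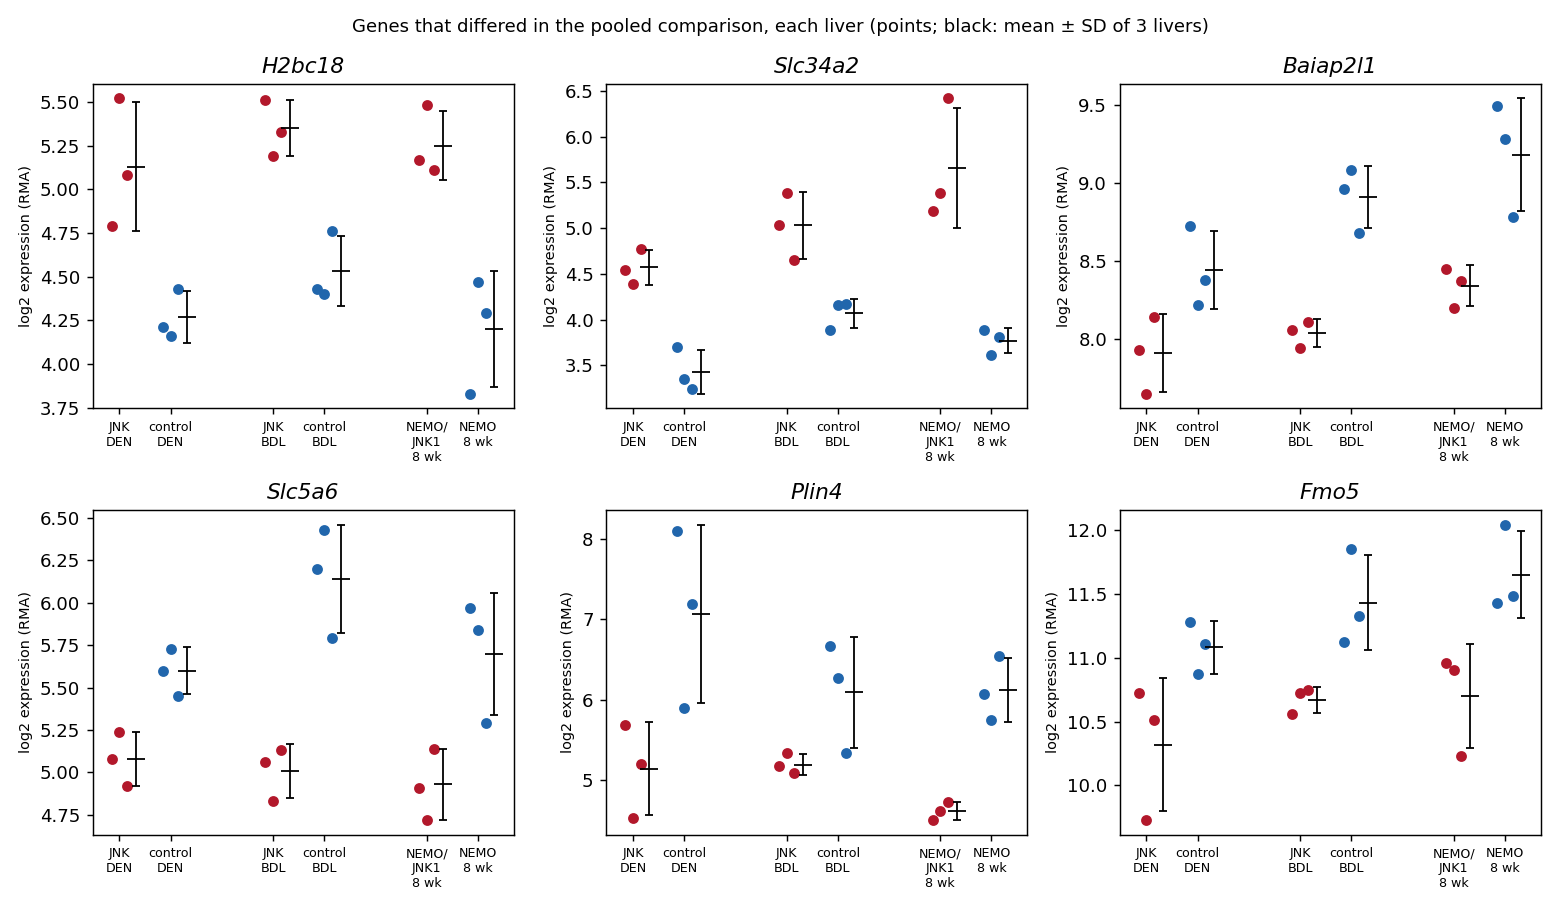
Log2 expression of 6 of the 18 genes in each liver (red, JNK1 loss; blue, the livers of the same experiment without it; black, mean ± SD of 3). H2bc18 and Slc34a2 are higher and Baiap2l1, Slc5a6, Plin4 and Fmo5 lower in all JNK1-loss groups, with no overlap within an experiment.

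Further genes had groups that did not overlap in any experiment without passing the adjusted threshold. The collagen gene Col15a1 had a difference of 0.76 ± 0.15 (limma adjusted p = 0.0606), the zinc transporter Slc39a10 one of 0.42 ± 0.09 (0.0739 in the same test) and the endocytic adaptor Dab2 one of 0.87 ± 0.25 (0.226 in the same test). On the lower side, Nnt, the mitochondrial transhydrogenase, had a difference of -0.53 ± 0.11 (limma adjusted p = 0.0739), and the RNA helicase Ddx1, named after its values were seen like Nnt, one of -0.33 ± 0.07 (0.0761 in the same test). Over the array the groups did not overlap in any experiment for 10 genes that were higher (0.0531%) and 18 that were lower (0.0956%), counts that include 11 of the called genes and leave 17 that were not called.

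The JNK pathway itself showed no called change apart from Mapk8. Of 25 measured members of the cascade other than Mapk8, 0 passed the adjusted threshold in limma, and at an unadjusted p of 0.05 none was higher and 4 were lower. Over all genes, 5.64% were higher and 5.46% lower at that unadjusted p. Map3k5, which encodes the upstream kinase ASK1, had a difference of -0.44 ± 0.10 (limma adjusted p = 0.1), with -0.31 after DEN, -0.73 after BDL and -0.29 at 8 weeks. Dusp8, a phosphatase of JNK, had -0.75 ± 0.18 (limma adjusted p = 0.134), most of it after BDL, where the difference was -1.45. The median of the list was -0.02. Of 20 measured AP-1 and immediate early genes, 0 passed, 3 were lower at an unadjusted p of 0.05 and the median was -0.05. Mafk had -0.30 ± 0.12 and Jund -0.30 ± 0.13 (SE, n = 9 and 9). Jund had -0.16 after DEN, -0.70 after BDL and -0.03 at 8 weeks. Jun, which encodes c-Jun and was named after its values were seen, had -0.38 ± 0.18 (limma adjusted p = 0.436). Its differences were -0.57 after DEN, -0.38 after BDL and -0.19 at 8 weeks.

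Genes next to Mapk8 on chromosome 14 were examined since an engineered allele brings flanking sequence with it. Of the 50 nearest genes with a value, 25 on each side, 0 passed the adjusted threshold in limma, 1 was higher and 5 were lower at an unadjusted p of 0.05, and the median was -0.05. Over all genes, 5.64% were higher and 5.46% lower at that unadjusted p. The nearest of the 5 lower genes were Gdf10 and Gdf2, 3 and 4 genes from Mapk8, named after their values were seen. They had -0.89 and -0.71 (limma adjusted p = 0.319 and 0.339). The 1 higher gene, Tmem273, on the other side of Mapk8, had 0.54 (0.36 in the same test). Fam25c, 15 genes from Mapk8, had a difference of -1.43 ± 0.28 (limma adjusted p = 0.0606). It was 6.70, 6.53 and 7.50 in JNKΔhepa livers after BDL, against 8.40, 9.05 and 8.83 in control livers. Those groups were apart, as they were after DEN, and they overlapped at 8 weeks.

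Genes of proliferation and of immune cells were often higher without a called member. Among 24 measured cell cycle genes, 12 were higher and 0 lower at an unadjusted p of 0.05, where 5.64% of all genes were higher. A positive difference in each experiment was seen in 19, against 13.3% of all genes, and the median was 0.40, with 0.29 after DEN, 0.60 after BDL and 0.28 at 8 weeks. Kif11, a motor of the mitotic spindle, had a difference of 0.79 ± 0.18 (limma adjusted p = 0.109), and Rrm2, a subunit of ribonucleotide reductase, had 0.69 ± 0.16 (limma adjusted p = 0.122). The mean level of the list after DEN was 4.92 to 6.15 in JNKΔhepa livers and 4.98 to 5.39 in control livers, so that the groups overlapped. Kif11 was 6.33 in the second JNKΔhepa liver after DEN, against 4.90 and 5.09 in the other JNKΔhepa livers. With the prefix as a term 5 cell cycle genes were higher at an unadjusted p of 0.05, and without the second NEMO/JNK1 liver 7 were.

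Macrophage and Kupffer cell genes had 6 of 20 higher at an unadjusted p of 0.05, neutrophil genes 4 of 13, B and plasma cell genes 6 of 14 with 1 lower, and T and NK cell genes 5 of 21, against 5.64% of all genes. Their medians were 0.44, 0.62, 0.52 and 0.24 in that order. Lyz2, the lysozyme of myeloid cells, had a difference of 0.65 ± 0.18 (limma adjusted p = 0.188) and S100a9, a calprotectin subunit of neutrophils, 0.96 ± 0.46 (limma adjusted p = 0.448). S100a9 was 8.83 in the second NEMO/JNK1 liver, against 4.92 and 4.25 in the other NEMO/JNK1 livers and 4.48 to 5.38 in NEMO livers. Without that liver, 2 of 13 neutrophil genes were higher at an unadjusted p of 0.05 and the median was 0.38, and the macrophage median was 0.28. With the prefix as a term 1 macrophage gene and 1 neutrophil gene were higher. The mean level of the macrophage list was 6.95 to 9.34 in NEMO/JNK1 livers and 7.40 to 7.63 in NEMO livers. After DEN that level was 7.18 to 8.26 in JNKΔhepa livers and 7.29 to 7.72 in control livers. The part of these cells in the called genes was not tested.

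Interferon response genes had 8 of 25 higher and 0 lower at an unadjusted p of 0.05, with a median of 0.34, where 5.64% and 5.46% of all genes were. Oasl2, a relative of the antiviral oligoadenylate synthetases, had a difference of 0.66 ± 0.14 (limma adjusted p = 0.078) and Isg15, a ubiquitin-like modifier, 0.57 ± 0.16 (limma adjusted p = 0.218). Without the female-pattern liver 5 interferon genes were higher. Bile duct epithelial genes had 8 of 20 higher and 1 lower with a median of 0.49. In 10 of them the difference was positive in each experiment, against 13.3% of all genes. Ezr had differences of 1.05 after DEN, 0.49 after BDL and 1.32 at 8 weeks, and Onecut1 had 0.96, 0.37 and 1.655 in that order. Of the markers, Krt7 and Sox9 were positive in each experiment, with Krt7 at 0.10 at 8 weeks, while Krt19 and Epcam were not. Krt19 had differences of 1.24 after DEN, 0.94 after BDL and -0.79 at 8 weeks. Epcam had 8.81 in the second JNKΔhepa liver after DEN, against 4.26 and 5.33 in the other JNKΔhepa livers and 3.93 to 4.41 in control livers.

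Lists of hepatocyte lipid and bile acid metabolism had pooled medians between -0.06 and 0.10, with lower values at 8 weeks than in the other experiments for several. The cholesterol synthesis list had 0.27 after DEN, 0.30 after BDL and -0.44 at 8 weeks, the PPARalpha list 0.06, 0.05 and -0.36, and the bile acid list -0.01, 0.20 and -0.28. Of 24 measured PPARalpha targets, 0 passed in limma, with 2 higher and 2 lower at an unadjusted p of 0.05 and a median of -0.06. Over all genes, 5.64% were higher and 5.46% lower at that unadjusted p. Vnn1 had a difference of 0.675 ± 0.22 (limma adjusted p = 0.277), with 0.45 after DEN, 0.61 after BDL and 0.96 at 8 weeks. Fgf21, the fasting hormone of the liver, had a difference of 0.86 ± 0.34 (limma adjusted p = 0.37), with 1.38 after DEN, 1.12 after BDL and 0.08 at 8 weeks. Plin4 was the single called gene of 24 in fatty acid and triglyceride synthesis, and it is a coat protein rather than an enzyme of that route. Of 30 genes of bile acid synthesis and transport, 1 was higher and 4 lower at an unadjusted p of 0.05, with Abcb4, the phospholipid exporter of the bile canaliculus, at -0.62 ± 0.13 (limma adjusted p = 0.0761). Abcb4 differences were -0.62 after DEN, -0.60 after BDL and -0.66 at 8 weeks.

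Lists that leaned lower were NRF2 and glutathione genes, with 4 of 16 lower and 0 higher at an unadjusted p of 0.05 and a median of -0.26, and circadian clock genes, with 5 of 17 lower and 2 higher and the same median. Xenobiotic receptor targets had 3 of 20 lower and 0 higher and a median of -0.20, with -0.0 after DEN, 0.20 after BDL and -0.97 at 8 weeks. Of all genes, 5.46% were lower and 5.64% higher at that threshold. With the prefix as a term 3 NRF2 genes were lower, and 0 circadian genes were lower or higher at an unadjusted p of 0.05 in limma, with a circadian median of -0.18. Gstm3, a glutathione transferase, had a difference of -0.83 ± 0.17 (limma adjusted p = 0.0654), and Cry2, a clock repressor, -0.48 ± 0.11 (limma adjusted p = 0.122). The hour at which livers were removed is not stated in the labels. Nr1i2, the xenobiotic receptor PXR, had -0.67 ± 0.13 (limma adjusted p = 0.0617), with -0.63 after DEN, -0.68 after BDL and -0.69 at 8 weeks. No called gene belongs to these lists.

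**Figure D5:**
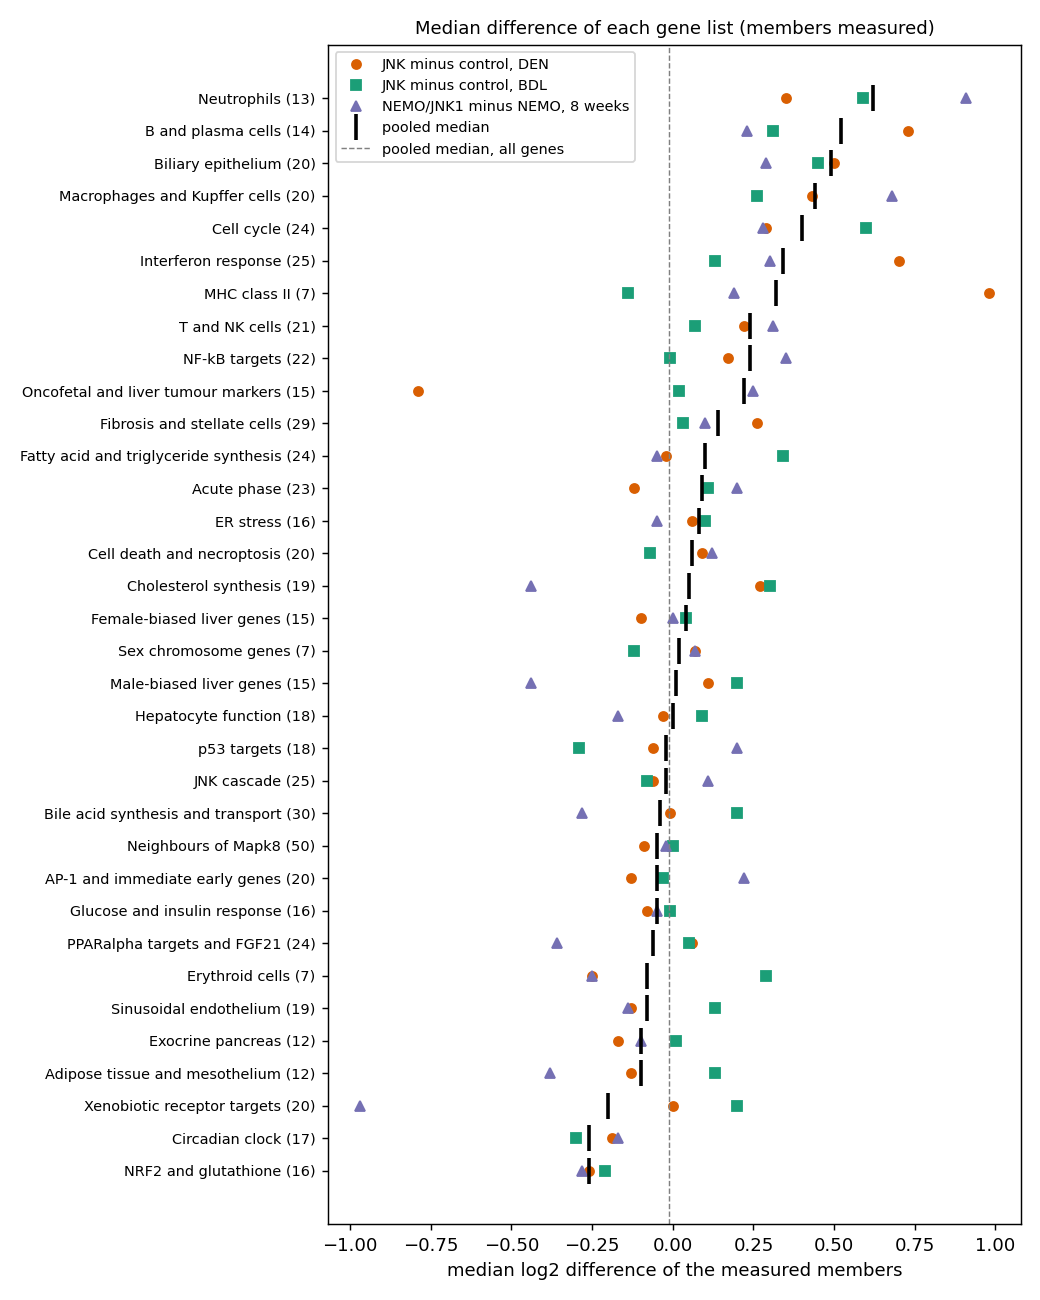
Median log2 difference of the measured members of 34 gene lists in each experiment, with the pooled median in black and the pooled median of all genes dashed. Neutrophil, B cell, biliary, macrophage and cell cycle lists lie highest, at 0.40 to 0.62, and circadian and NRF2 lists lowest, at -0.26.

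At 52 weeks, NEMO/JNKΔhepa triple knockout livers were set against livers labelled control of that age, a contrast that adds NEMO loss and passed for 4048 genes (21.5%), 2562 of them higher (13.6%) and 1486 lower (7.9%). Of the 18 genes, 11 had the same sign there and the others the opposite sign. The share of all genes with the same sign is not given here, so that the 11 are a description. Past the adjusted threshold were 4 with the same sign and 1 with the opposite, where 21.5% of all genes passed. Slc5a6, with the opposite sign, was 5.24, 5.40 and 5.41 in NEMO/JNKΔhepa livers, against 5.33, 4.84 and 4.87 in control livers. Baiap2l1, also opposite, was 8.61, 8.85 and 8.52, against 8.31, 8.48 and 8.48. Passing with the same sign were H2bc18 at 0.58, Rgs3 at 0.69, Plin4 at -1.33 and Mapk8 at -0.87, with limma adjusted p-values of 0.0269, 0.0109, 0.0305 and 0.00259. Prelid2 passed with the opposite sign, at 0.81 (limma adjusted p = 0.0408). The median difference of the replication-dependent histone list at 52 weeks was 0.01.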

How the data were processed

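The authors deposited log2 expression values per probe set, made with RMA, per the submitters' processing notes. Which program ran RMA, and with which chip definition, is not given in the sources used here. Of 35556 probe sets, 21218 were paired with 1 gene symbol, 1881 with several and 12457 with none. Symbols came from the platform annotation, with 21185 of the Entrez identifiers matched in the RefSeq table of GRCm38.p6. The 21218 stood for 18820 genes, and where a gene had several probe sets (1386 genes) the one with the highest mean over all 24 arrays was kept.

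Differences were tested with limma 3.58.1 in R 4.3.3 (lmFit and eBayes) on the 18 livers with experiment as a block, two-sided, with Benjamini-Hochberg adjustment over all genes. No filter and no fold threshold were used. The interaction of experiment and JNK1 loss was an F test, and each experiment was also fitted on its own 6 arrays. Within 1 experiment the smallest exact permutation p is 0.1, so none was computed there. The procedure was tested on simulated data. Promoters were read from the RefSeq table.

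Genes were named by a rule: the targeted genes; the 12 largest rises and falls among called genes; the 8 genes in each direction with the largest smallest difference among those without overlap; up to 3 called members of a list or, without one, 2 members by smallest p; and the 5 smallest interaction p-values. Members and lists were chosen with earlier results of these data known, and 2 lists, of histone genes and of the Ifi200 and Phf11 families, after these values were seen. Alternatives were normalization, a filter on dim genes, probe set choice, variance models, samples and blocks.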

Additional observations from a re-analysis of the deposited data

Results flagged for a closer look

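In 11 genes (0.0584% of those tested) the difference between JNK1-loss livers and the livers they were set against differed between the 3 experiments by limma's interaction test. Their adjusted p-values were 0.000143 for Abhd1, 0.00873 for Catspere2, 0.00873 for Mmrn1, 0.00923 for Dab1, 0.00928 for Mug2, 0.0153 for Efna3, 0.0278 for Sntg1, 0.0278 for A2m, 0.031 for Smo, 0.031 for Socs2 and 0.0428 for Ctse.

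In 8 of them the BDL livers stood apart. Abhd1 was 5.75, 5.79 and 5.67 in JNKΔhepa livers after BDL, against 8.49, 9.17 and 8.91 in control livers, with differences of 0.03 after DEN and -0.43 at 8 weeks. Dab1, an adaptor of reelin signalling, had -4.04 after BDL, -1.01 after DEN and 0.16 at 8 weeks. Efna3, an ephrin ligand, had 3.64 after BDL, 0.00 after DEN and 0.60 at 8 weeks. Mmrn1 had 3.33, A2m 3.03, Mug2 2.29, Catspere2 -2.11 and Sntg1 -1.46 after BDL. In all 8 the JNKΔhepa and control livers after BDL did not overlap. The third control, a single liver, shares its identifier prefix with the JNKΔhepa livers. The genes were picked by a test on these same values, so that a lack of overlap follows in part from the choice. The part of the prefix was not tested.

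In the other 3 the 8-week livers stood apart. Ctse, the protease cathepsin E, was 4.56, 5.65 and 4.52 in NEMO/JNK1 livers, against 9.26, 8.50 and 9.10 in NEMO livers. Socs2, a feedback inhibitor of growth hormone signalling, was 9.23, 9.19 and 8.91 in NEMO/JNK1 livers, against 7.14, 6.32 and 7.13 in NEMO livers. Smo, the Hedgehog signal transducer, had a difference of 1.65 there. Prefix and genotype cannot be told apart in these livers.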

How the results depend on the processing

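The numbers of genes higher and lower, 5 and 13, were 9 and 18 after quantile normalization, 12 and 28 with arrays centred on the median, 8 and 17 without dim genes, 33 and 40 with array weights, 27 and 39 with all 24 arrays, 24 and 41 by means of the 6 groups, and 448 and 177 with the 52-week experiment added, an alternative chosen after seeing the data. They were 18 and 18 without the DEN experiment, 6 and 4 without the 8-week experiment, 0 and 0 without the BDL experiment, and 1 and 0 both with the identifier prefix as a term (1334 genes at an unadjusted p of 0.05) and with 1 prefix alone (1486 genes, with Phf11a the single call). The same replicate numbers did not deviate together in all experiments (correlations of -0.069 to 0.359), and with the replicate block 2 genes were higher and 5 lower, with 4 interaction calls in place of 11. With 1 liver left out, 2 to 43 were higher and 3 to 30 lower; the total was lowest, at 5, without the second JNKΔhepa BDL liver and highest, at 73, without the first JNKΔhepa DEN liver. It was 7 without the first and 8 without the third JNKΔhepa BDL liver, 8 without the first or the second and 10 without the third BDL control, 8 without the second and 31 without the third NEMO liver, and 28 without the third NEMO/JNK1 liver. Mapk8 ranged from -0.82 to -0.70 in those fits and was -0.72 (limma adjusted p = 0.251) with the prefix term, -0.72 (0.243) with 1 prefix alone and -0.63 (0.48) without the BDL experiment. Interaction calls were 6 without dim genes and 83 with array weights, and 2 to 21 with 1 liver left out. List members called higher, 0, were 3 with array weights, 2 with all 24 arrays and by group means, and 1 without the 8-week experiment, with 0 to 6 in fits without 1 liver. List members called lower, 1, were 2 after quantile normalization and with the mean of probe sets, 5 with centred arrays, 4 without dim genes, 6 with array weights, all 24 arrays or group means, and 0 with trend and robust fitting, with either prefix alternative or without any 1 experiment, with 0 to 5 in fits without 1 liver. By group means the BDL livers gave 71 genes in place of 255 and the 8-week livers 16 in place of 0. Over the called genes, 389 refits kept direction and threshold, 202 kept the direction alone and 0 reversed. Among list medians, 12 moved beyond the spread between replicates and 1176 did not. The causes of these shifts were not tested. The number of arrays limits the precision.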

Other observations

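Genes of the Ifi200 and Phf11 families, interferon-inducible genes on a list drawn up after their values were seen, were higher in part. Of 12, 0 passed the adjusted threshold in limma, and at an unadjusted p of 0.05, 6 were higher and 1 was lower, with a median of 0.40. Among all genes, 5.64% were higher and 5.46% lower at that unadjusted p. Ifi209 was 6.03, 6.50 and 5.76 in JNKΔhepa livers after BDL, against 4.90, 5.01 and 4.96 in control livers. Its pooled difference was 1.01 ± 0.19 (SE, n = 9 and 9; limma adjusted p = 0.0525), and Ifi213 had 1.01 ± 0.19 (limma adjusted p = 0.0504).

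Ifi202b was lower in JNK1-loss livers after BDL and on average at 8 weeks, and higher on average after DEN. It was 2.25, 2.24 and 2.19 in JNKΔhepa livers after BDL, against 4.76, 5.11 and 4.85 in control livers. At 8 weeks it was 2.58, 2.16 and 2.19 in NEMO/JNK1 livers, against 4.53, 4.40 and 2.14 in NEMO livers. After DEN it was 2.37, 2.40 and 4.60 in JNKΔhepa livers, against 2.29, 2.13 and 2.64 in control livers. The value of 4.60 is that of the female-pattern liver. Single livers thus had a level of either 2.13 to 2.64 or 4.40 to 5.11, with both kinds in the JNKΔhepa DEN group and the NEMO group. The lower of these levels lies at the array floor.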
